A study of Mus musculus with 13 samples.

Results

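The genes of the growth hormone, prolactin and IGF axis were followed in the livers of female mice given a high-fat high-sucrose diet or a pollutant mixture. The 10 genes were taken by name, as every probe of the array annotated to Ghr, Prlr, Stat5a, Stat5b, Socs2, Cish, Igf1, Igfals, Igfbp2 or Igfbp4. They have 21 of the 39429 probes of the array, which carries 30028 gene names. Of these, 20 probes were bright enough to be tested, among 25030 probes tested in all. The remaining probe, 1 of 4 for Socs2, was well above background on a single array and was left out.

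Total RNA came from C57BL6 females aged 12 weeks, labelled with a single dye and hybridised to 13 Agilent arrays. Mice of the HFHS vehicle group (n = 5) received the diet labelled HFHS, a high-fat high-sucrose diet, with vehicle. Mice of the ST pollutants group (n = 5) received the standard diet, labelled ST, with a mixture of 4 pollutants, which the sources used here do not name. Mice of the ST vehicle group (n = 3) received the standard diet with vehicle. The series text does not settle which diet carried the mixture, and the sample labels were followed. The labels call the samples biological replicates and do not say whether each is a single animal.

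Growth hormone binds its receptor on hepatocytes and activates the kinase JAK2, which phosphorylates STAT5A and STAT5B. These transcription factors turn on Igf1 and Igfals, whose products circulate together, and Socs2 and Cish, whose products damp the signal. Prolactin acts through a related receptor and the same kinase, and binding proteins such as IGFBP2 and IGFBP4 hold IGF1 in the circulation and in tissues. In rodents the sexes secrete growth hormone in different patterns, which sets many sex-biased genes of the liver.

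Each array's 75th percentile of signal lay between 782 and 1354 intensity units, and between 62.8% and 69.5% of probes were well above background. The hepatocyte markers, 10 of 10 measured, had a mean log2 signal of 7.18 to 7.55 in HFHS vehicle, 7.41 to 7.60 in ST pollutants and 7.50 to 7.68 in ST vehicle. Transcripts of pancreatic acinar cells, 10 of 12 measured, averaged 3.75 to 7.09 on HFHS vehicle replicates 3, 4 and 5, and -2.85 and -2.51 on replicates 2 and 1. They averaged -3.19 to -1.58 in ST pollutants and -2.98 to -2.31 in ST vehicle. Skeletal muscle markers, 5 of 6 measured, averaged -4.57 to -0.18 in HFHS vehicle (median -4.14), -2.96 to -0.04 in ST pollutants (median -0.23) and -3.27 to -0.49 in ST vehicle (median -0.85). Adipocyte markers, 5 of 6 measured, averaged -3.45 to -2.57 in HFHS vehicle, -3.61 to -0.60 in ST pollutants and -3.04 to -1.38 in ST vehicle. Cholangiocyte markers, 6 of 7 measured, averaged -2.81 to -2.36 in HFHS vehicle, -2.52 to -2.14 in ST pollutants and -2.40 to -2.04 in ST vehicle. No probe of these lists passed the test in any comparison. Other marker lists held single probes that passed. Of 10 pericentral probes 1 was lower in HFHS vehicle than in ST vehicle (0.627% of all probes passed). Of 9 periportal probes 1 was lower and of 8 stellate probes 1 higher in HFHS vehicle than in ST pollutants (3.42%). In ST pollutants against ST vehicle 1 periportal and 1 stellate probe were lower (0.983%). The part of these cell types in the differences below was not tested. The arrays came on 5 slides. Slide 1 to 5 each held the HFHS vehicle and the ST pollutants array of that replicate number, and slides 1, 2 and 5 also held ST vehicle replicates 1, 2 and 3. Each level below is the log2 of the processed signal minus the array's 75th percentile, and a level says nothing about one gene against another because probes differ in brightness. In whole liver, fewer cells of a type and less RNA per cell cannot be told apart.

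Few of the axis genes passed the test of a difference between the groups. Against the ST vehicle livers, no member probe passed an adjusted p of 0.05 in limma, either in HFHS vehicle (0 of 20 probes, against 0.627% of all probes tested) or in ST pollutants (0 of 20, against 0.983%). At an unadjusted p under 0.05 there were 7 and 2 member probes in these comparisons, and 4 in HFHS vehicle against ST pollutants, while 12.0%, 12.2% and 18.4% of all probes were under it. Between the HFHS vehicle and the ST pollutants livers 3 of 20 member probes passed, against 3.42% of all probes. Both probes of Igfbp2 were lower in HFHS vehicle (2.00% of all probes were called lower) and 1 of 2 probes of Prlr was higher (1.43% of all probes were called higher). The median difference over the 20 member probes was -0.15 for HFHS vehicle minus ST vehicle, -0.10 for ST pollutants minus ST vehicle and -0.02 for HFHS vehicle minus ST pollutants. The medians over all probes tested were -0.018, -0.0080 and -0.0043 for the same differences. The comparisons share their arrays, so they are not independent of each other.

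**Figure D1:**
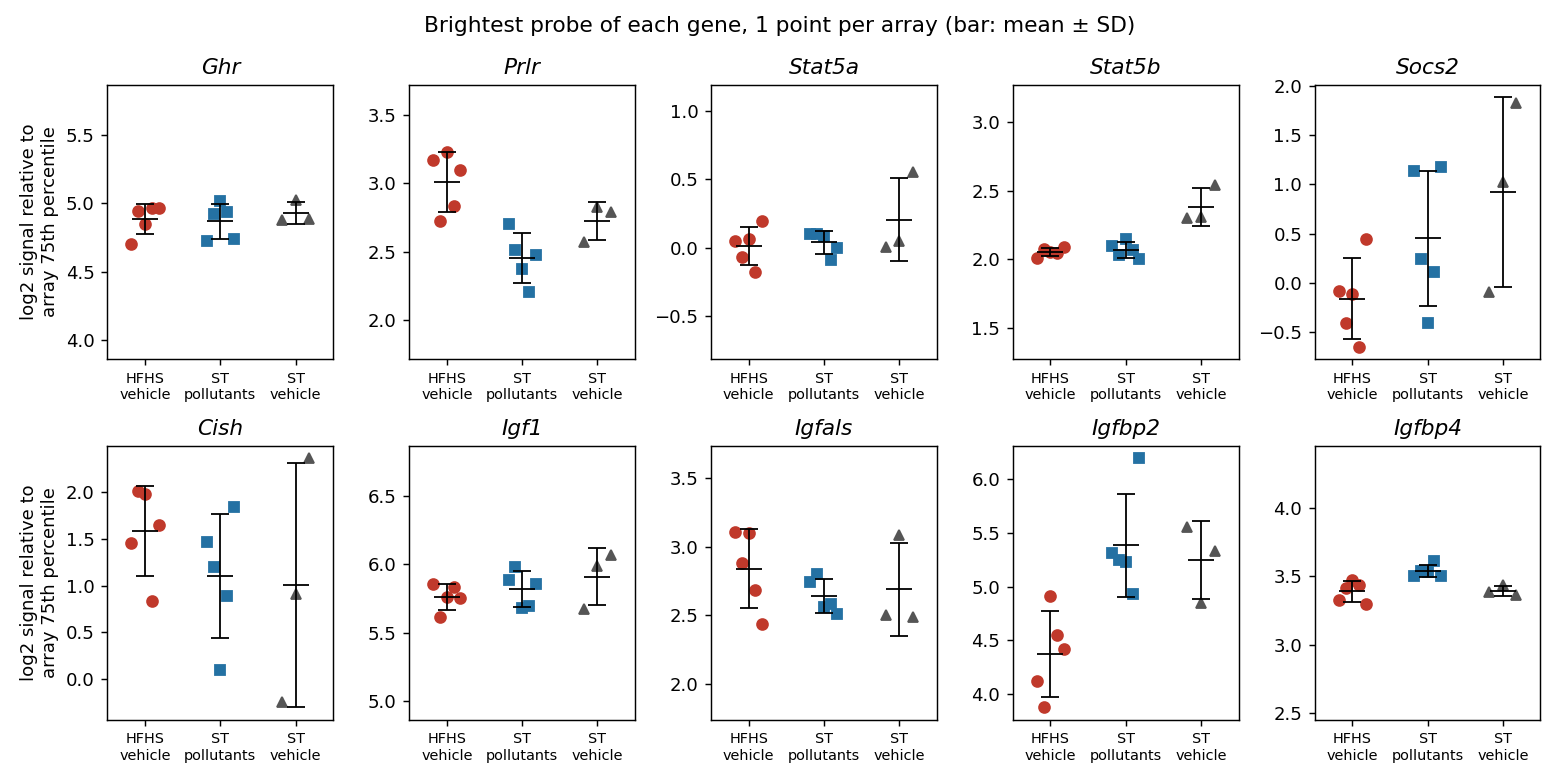
Log2 signal relative to each array's 75th percentile (vertical axis) for the brightest probe of each of the 10 genes, by group (horizontal axis), with 1 point per array and bars for the mean ± SD. Igfbp2 was lower on the 5 HFHS vehicle arrays, at 3.88 to 4.92, than on the 5 ST pollutants arrays, at 4.93 to 6.20, while Ghr lay between 4.71 and 5.02 on all 13 arrays.

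The probe sequences below belong to probes whose values are described further on, each written 5′ to 3′ in the sense of the transcript and read from the scanner files. The first is the less bright probe of Igfbp2 (mm9 chr1:72898677-72898736, plus strand), whose reading frame holds up to a stop codon at its last bases, in capitals. The second is the upstream probe of Prlr (mm9 chr15:10255629-10255688, plus strand), which differed less between the groups than the downstream probe. The third is a probe of Socs2 (mm9 chr10:94875468-94875527, minus strand), which holds 1 reading frame throughout. An open frame over 60 bases does not show coding sequence. The Socs2 probe left out as too dim also holds 1, and the Igfbp2 probe holds 3.
Igfbp2: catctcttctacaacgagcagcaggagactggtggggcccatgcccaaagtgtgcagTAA
Prlr: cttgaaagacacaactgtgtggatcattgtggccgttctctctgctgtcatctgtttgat
Socs2: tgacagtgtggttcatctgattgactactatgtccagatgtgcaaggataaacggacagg

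Among the receptors, Ghr, which encodes the growth hormone receptor, differed little between the groups and did not pass the test. Its brighter probe (mm9 chr15:3277543-3277602) read 4.71, 4.94, 4.85, 4.97 and 4.96 in HFHS vehicle, 4.72, 4.92, 5.02, 4.94 and 4.74 in ST pollutants, and 4.87, 5.02 and 4.89 in ST vehicle. The ranges of the groups overlap. The difference was -0.04 for HFHS vehicle minus ST vehicle (95% interval -0.25 to 0.16) and -0.06 for ST pollutants minus ST vehicle (-0.27 to 0.15). The second Ghr probe gave -0.0014 and -0.09, with intervals that reach no further than -0.38 and 0.28. At this precision a change of Ghr of the size seen for Igfbp2 lies outside the intervals of both probes.

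Prlr, the prolactin receptor gene, was read by probes 3437 bases apart on the genome. The downstream probe (mm9 chr15:10259066-10259125) read 3.17, 2.73, 3.23, 2.83 and 3.10 in HFHS vehicle, 2.71, 2.51, 2.38, 2.20 and 2.48 in ST pollutants, and 2.57, 2.83 and 2.79 in ST vehicle. Every HFHS vehicle array was above every ST pollutants array, narrowly for replicate 2, and the ST vehicle arrays overlapped both groups. The probe was higher in HFHS vehicle than in ST pollutants by 0.56 ± 0.12 (SE; 1.47-fold, limma adjusted p = 0.0285). Against ST vehicle it differed by 0.28 ± 0.14 in HFHS vehicle (adjusted p = 0.458) and by -0.27 ± 0.14 in ST pollutants (adjusted p = 0.481). These parts were of similar size and opposite sign, and neither passed the test.

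The upstream Prlr probe, whose sequence is given above, read 2.72, 2.48, 2.71, 2.57 and 2.36 in HFHS vehicle, 2.52, 2.39, 2.44, 2.26 and 2.31 in ST pollutants, and 2.61, 2.71 and 2.41 in ST vehicle. The 3 groups overlap on it. Its difference between HFHS vehicle and ST pollutants was 0.19 ± 0.09 (adjusted p = 0.316), of the same sign as that of the downstream probe. With slide as a block the downstream probe kept its call (adjusted p = 0.0413), and within slides 1 to 5 it differed by 0.47, 0.21, 0.85, 0.63 and 0.62. The call was lost when HFHS vehicle replicate 1, 3 or 5 or ST pollutants replicate 3, 4 or 5 was left out (adjusted p = 0.0566 to 0.0767). It was also lost without the HFHS vehicle arrays high in acinar transcripts (0.49, adjusted p = 0.190), and whether those transcripts bear on it was not tested.

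Of the transducers, Stat5b was lower on every HFHS vehicle and every ST pollutants array than on any ST vehicle array, and neither difference passed the test. The brighter probe (mm9 chr11:100642045-100642104) read 2.01, 2.07, 2.06, 2.04 and 2.09 in HFHS vehicle, 2.10, 2.03, 2.15, 2.07 and 2.00 in ST pollutants, and 2.30, 2.31 and 2.55 in ST vehicle. ST vehicle replicate 3 was the highest of the 13 arrays, and the other ST vehicle arrays stood apart from the remaining groups by a small margin. The difference was -0.33 ± 0.08 for HFHS vehicle minus ST vehicle (adjusted p = 0.0745) and -0.32 ± 0.08 for ST pollutants minus ST vehicle (adjusted p = 0.0747). Both comparisons use the same 3 ST vehicle arrays.

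The second Stat5b probe, 142 bases away, read 1.12 to 1.29 in HFHS vehicle, 0.93 to 1.34 in ST pollutants and 1.42 to 1.68 in ST vehicle. It too separated the ST vehicle arrays from the rest. It differed by -0.32 ± 0.10 in HFHS vehicle (adjusted p = 0.218) and by -0.35 ± 0.10 in ST pollutants (adjusted p = 0.154). These were the 2 member probes whose groups did not overlap in HFHS vehicle against ST vehicle, both lower, while 9.17% of all probes did not overlap and 5.31% did so lower in HFHS vehicle. In ST pollutants against ST vehicle 3 member probes did not overlap, the same 2 lower and Igfbp4 higher, while 8.43% of all probes did not overlap and 4.44% did so lower in ST pollutants. Without ST vehicle replicate 3 the differences of the brighter probe were -0.25 in HFHS vehicle and -0.24 in ST pollutants. Within slides 1, 2 and 5 the difference from the ST vehicle array was -0.45 to -0.23 for the 3 HFHS vehicle arrays and -0.54 to -0.20 for the 3 ST pollutants arrays.

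Stat5a, the neighbouring STAT5 gene on chromosome 11 (probe at mm9 chr11:100746373-100746432), read 0.05, -0.07, 0.06, -0.18 and 0.19 in HFHS vehicle, 0.10, 0.10, 0.08, -0.09 and -0.01 in ST pollutants, and 0.01, 0.05 and 0.55 in ST vehicle. A single array, ST vehicle replicate 3, was above the others, and the rest of its group lay among the treated arrays. The differences from ST vehicle were -0.19 ± 0.13 in HFHS vehicle and -0.17 ± 0.13 in ST pollutants (adjusted p = 0.658 and 0.719). Without ST vehicle replicate 3 they were -0.017 and 0.0094.

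**Figure D2:**
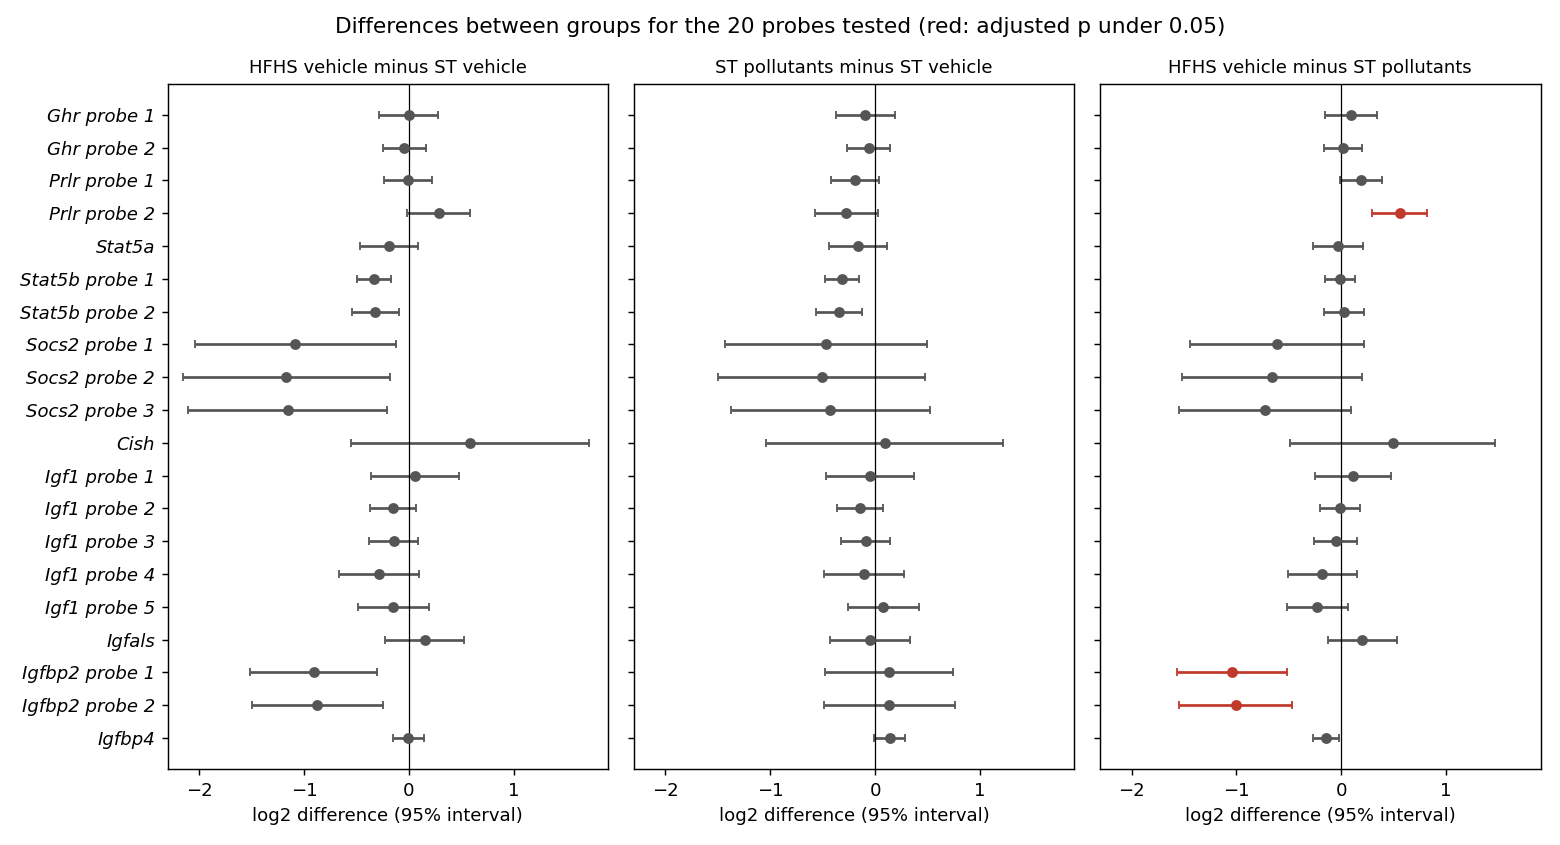
Log2 differences with 95% intervals (horizontal axis) for the 20 member probes tested, with the probes of a gene numbered by position, in the 3 comparisons (panels). The 3 red points, in HFHS vehicle minus ST pollutants, are the probes that passed, Prlr at 0.56 and Igfbp2 at -1.04 and -1.01, and the intervals of Socs2 and Cish are the widest.

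The feedback inhibitors Socs2 and Cish spread more widely over the 3 ST vehicle arrays than the other members did. Socs2, whose product restrains growth hormone signalling and body growth in mice, was read by 3 probes that gave the same pattern. The probe at mm9 chr10:94875066-94875125 read -0.08, -0.41, -0.11, -0.65 and 0.44 in HFHS vehicle, 1.14, 0.25, -0.40, 0.11 and 1.17 in ST pollutants, and -0.09, 1.03 and 1.83 in ST vehicle. HFHS vehicle held 4 of its 5 arrays at or below 0, and the ST vehicle arrays were spread over almost the whole range.

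The Socs2 difference of HFHS vehicle minus ST vehicle was -1.08 ± 0.44, -1.17 ± 0.45 and -1.16 ± 0.44 on the 3 probes, none of which passed (adjusted p = 0.343, 0.310 and 0.293). The differences were -0.47, -0.51 and -0.43 for ST pollutants minus ST vehicle and -0.61, -0.66 and -0.73 for HFHS vehicle minus ST pollutants, again with no call. Without ST vehicle replicate 3 the first of these probes differed from ST vehicle by -0.63 in HFHS vehicle and -0.015 in ST pollutants, and without ST vehicle replicate 1 by -1.59 and -0.98. Within slide 1 the HFHS vehicle and ST vehicle arrays were level on the first of these probes (0.01), and on slides 2 and 5 they differed by -1.43 and -1.38. The probe whose sequence is printed above read -0.48, -0.77, -0.38, -1.10 and 0.04 in HFHS vehicle, 0.69, 0.14, -0.62, -0.26 and 1.01 in ST pollutants, and -0.32, 0.62 and 1.56 in ST vehicle.

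Cish, a STAT5 target whose product is a member of the same inhibitor family, gave no call either. Its probe (mm9 chr9:107204196-107204255) read 1.46, 2.02, 1.99, 0.84 and 1.65 in HFHS vehicle, 1.47, 1.20, 0.09, 0.89 and 1.84 in ST pollutants, and -0.25, 0.91 and 2.37 in ST vehicle. ST vehicle held both the lowest and the highest of the 13 arrays, so the groups overlap throughout. The differences were 0.58 ± 0.52 for HFHS vehicle minus ST vehicle (adjusted p = 0.811), 0.09 ± 0.52 for ST pollutants minus ST vehicle (adjusted p = 0.984) and 0.49 ± 0.45 for HFHS vehicle minus ST pollutants (adjusted p = 0.670). Without ST vehicle replicate 1 the differences from ST vehicle were -0.046 in HFHS vehicle and -0.54 in ST pollutants, and without ST vehicle replicate 3 they were 1.26 and 0.77, so a single ST vehicle array turned their sign.

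The start of Cish is shown because it holds a pair of STAT-type motifs, TTCNNNGAA, a palindrome that reads the same on both strands. In the RefSeq window of GRCm38.p6, chr9:107296619-107296678 on the plus strand, the matches begin at bases 1 and 12 counted from the annotated start of the gene and are in capitals.
Cish: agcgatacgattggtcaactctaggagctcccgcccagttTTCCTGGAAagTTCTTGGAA
Of 32851 such windows in the mouse, from 250 bases before to 50 after a start, 8.3% hold the motif and 0.46% hold it 2 or more times. Of the members, 9 of 10 have windows in that table, and Socs2 has none. Among their 17 windows the motif occurs in 4, in that of Cish, in 1 of Prlr and in 2 of Igfals. A match is a string of letters and was not measured as binding here.

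**Figure D3:**
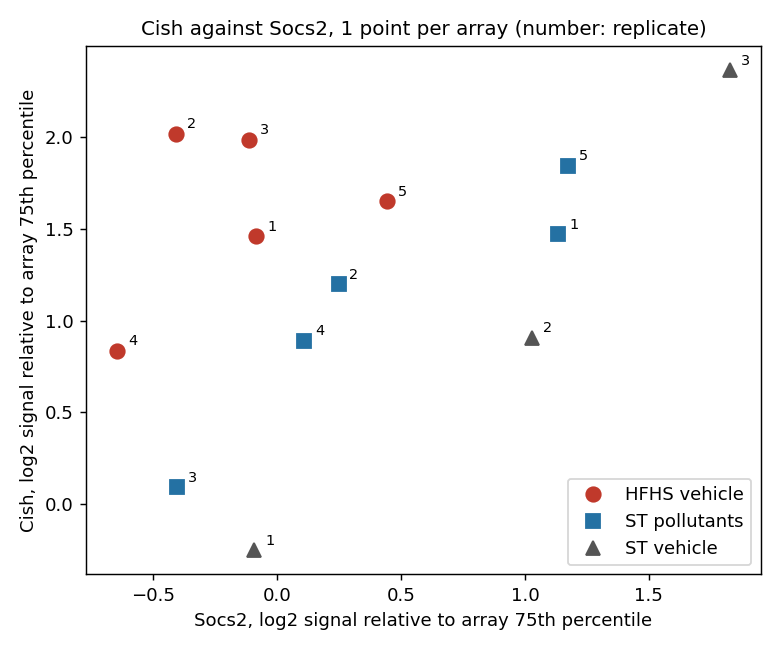
Cish (vertical axis) against Socs2 (horizontal axis), both as log2 signal relative to each array's 75th percentile, with 1 point per array and the replicate number beside it. Cish minus Socs2 was at least 1.21 on the 5 HFHS vehicle arrays and at most 0.95 on the 8 others. This difference was chosen after the values were seen and was not tested.

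Igf1, the main circulating product of the axis, was read by 5 probes, of which 2 share 40 bases and are close to a single measurement. Its brightest probe (mm9 chr10:87393581-87393640) read 5.85, 5.61, 5.76, 5.83 and 5.75 in HFHS vehicle, 5.88, 5.98, 5.68, 5.70 and 5.85 in ST pollutants, and 5.67, 5.99 and 6.06 in ST vehicle. ST vehicle had a low and 2 higher arrays, and the groups overlap. No Igf1 probe passed in any comparison. For HFHS vehicle minus ST vehicle 4 of the 5 probes were negative (-0.29 to -0.14) and the fifth, at mm9 chr10:87378456-87378515, was 0.06. For ST pollutants minus ST vehicle they lay between -0.14 and 0.08, and the interval of the brightest probe was -0.32 to 0.14.

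Igfals, the acid-labile subunit that keeps IGF1 in the circulation, read 3.10, 2.88, 3.10, 2.68 and 2.43 in HFHS vehicle, 2.74, 2.80, 2.56, 2.58 and 2.51 in ST pollutants, and 2.50, 3.08 and 2.48 in ST vehicle. The groups overlap. The differences were 0.15 ± 0.17 for HFHS vehicle minus ST vehicle, -0.05 ± 0.17 for ST pollutants minus ST vehicle and 0.20 ± 0.15 for HFHS vehicle minus ST pollutants (adjusted p = 0.885, 0.970 and 0.560).

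Igfbp2, an IGF binding protein made in the liver, gave the largest called difference of the axis. The probe whose sequence is printed above read 3.97, 3.75, 4.80, 4.53 and 4.25 in HFHS vehicle, 5.17, 5.26, 5.16, 4.89 and 6.04 in ST pollutants, and 5.50, 4.79 and 5.23 in ST vehicle. All 5 HFHS vehicle arrays were below all 5 ST pollutants arrays, with replicate 3 close to the lowest of them, and ST pollutants replicate 5 was the highest array. The probe was lower in HFHS vehicle than in ST pollutants, with a difference of -1.04 ± 0.24 (2.06-fold lower, limma adjusted p = 0.0378).

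The brighter Igfbp2 probe (mm9 chr1:72898813-72898872), which starts 136 bases further on, read 4.12, 3.88, 4.92, 4.55 and 4.42 in HFHS vehicle, 5.31, 5.25, 5.23, 4.93 and 6.20 in ST pollutants, and 5.56, 4.85 and 5.33 in ST vehicle. It ordered the arrays in nearly the same way, and it differed between HFHS vehicle and ST pollutants by -1.01 ± 0.25 (2.01-fold lower, adjusted p = 0.0474). These probes read the same transcript and count as a single gene. Against ST vehicle the HFHS vehicle difference was almost as large, at -0.91 ± 0.28 and -0.87 ± 0.29, without a call (adjusted p = 0.206 and 0.230), and HFHS vehicle replicate 3 overlapped ST vehicle replicate 2. The ST pollutants livers differed from ST vehicle by 0.13 ± 0.28 and 0.14 ± 0.29 (adjusted p = 0.940 on both).

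The sign of the Igfbp2 difference was the same on every slide and its call depended on single arrays. Within slides 1 to 5 the first probe differed by -1.20, -1.50, -0.355, -0.36 and -1.79 for HFHS vehicle minus ST pollutants. Within slides 1, 2 and 5 it differed by -1.53 to -0.97 for HFHS vehicle minus ST vehicle. With slide as a block the calls missed the threshold (adjusted p = 0.0509 and 0.0507). The call of the first probe was lost without HFHS vehicle replicate 1, 2, 4 or 5, ST vehicle replicate 3, or ST pollutants replicate 1, 2, 3 or 5 (adjusted p = 0.0512 to 0.0979), with differences of -1.18 to -0.86 over all 13 omissions. That of the second probe was lost in 12 of 13 omissions, all but that of HFHS vehicle replicate 3 (adjusted p = 0.0507 to 0.123). The 3 HFHS vehicle arrays high in acinar transcripts were the highest of their group for Igfbp2, and without them the differences from ST pollutants were -1.44 and -1.39 (adjusted p = 0.0552 and 0.0776). The part of the acinar transcripts in these calls was not tested.

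**Figure D4:**
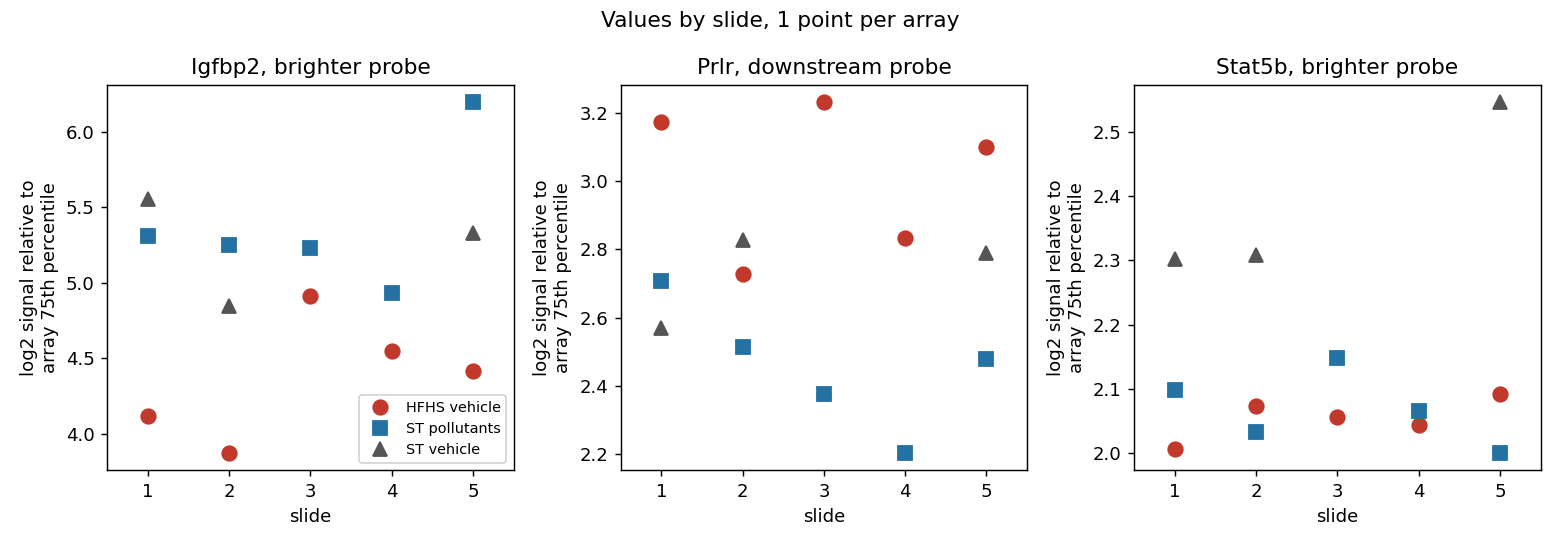
Log2 signal relative to each array's 75th percentile (vertical axis) by slide (horizontal axis), with 1 point per array, for the brighter Igfbp2 probe, the downstream Prlr probe and the brighter Stat5b probe. On each of the 5 slides the HFHS vehicle array is below the ST pollutants array for Igfbp2 and above it for Prlr, and on slides 1, 2 and 5 the ST vehicle array is the highest for Stat5b.

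Igfbp4, a binding protein that mostly restrains IGF1, moved little but evenly. Its probe (mm9 chr11:98913334-98913393) read 3.33, 3.42, 3.48, 3.43 and 3.30 in HFHS vehicle, 3.50, 3.54, 3.53, 3.61 and 3.50 in ST pollutants, and 3.39, 3.43 and 3.36 in ST vehicle. All 5 ST pollutants arrays were above all arrays of the other groups. The differences were small, 0.14 ± 0.07 for ST pollutants minus ST vehicle and -0.15 ± 0.06 for HFHS vehicle minus ST pollutants, and did not pass (adjusted p = 0.439 and 0.207). In HFHS vehicle against ST pollutants 4 of the 20 member probes did not overlap (Igfbp2 on both probes and Igfbp4 lower, Prlr higher), while 6.74% of all probes did not.

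Other genes of the axis, listed as hormones, receptors, kinases and adaptors, inhibitors, IGF carriers and liver transcription factors, gave few calls. Of 61 listed genes 52 were measured, by 69 probes. No probe passed in HFHS vehicle or ST pollutants against ST vehicle, and 1 passed in HFHS vehicle against ST pollutants, with 29 of 69 differences positive and a median of -0.07. The medians were -0.0039 for HFHS vehicle minus ST vehicle (34 of 69 positive) and 0.0060 for ST pollutants minus ST vehicle (37 of 69 positive). Over all probes 45.9%, 48.3% and 49.1% of differences were positive for HFHS vehicle and ST pollutants minus ST vehicle and HFHS vehicle minus ST pollutants, and 0.627%, 0.983% and 3.42% were called. That probe reads Foxa3, a forkhead transcription factor of hepatocytes. Foxa3 read -0.01, 0.05, 0.70, -0.01 and -0.03 in HFHS vehicle, 1.21, 0.93, 0.53, 0.65 and 1.20 in ST pollutants, and 0.96, 1.07 and 1.36 in ST vehicle. HFHS vehicle replicate 3 lay among the ST pollutants arrays, and its other arrays were below all arrays of both standard diet groups. The differences were -0.76 ± 0.18 from ST pollutants (adjusted p = 0.0362) and -0.99 ± 0.20 from ST vehicle (adjusted p = 0.0525). With slide as a block the Foxa3 difference from ST pollutants was not called (adjusted p = 0.0640), and the call was also lost in 8 of 13 single omissions, those of HFHS vehicle replicates 1, 2, 4 and 5, ST vehicle replicate 2, and ST pollutants replicates 1, 2 and 5 (adjusted p = 0.0525 to 0.0927). Without the acinar-high arrays it was -0.89 (adjusted p = 0.0817).

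Genes that growth hormone patterns make sex-biased in mouse liver also gave few calls. Of the genes higher in males, 22 of 25 were measured, by 29 probes. In HFHS vehicle against ST vehicle 28 of 29 differences were negative, against 54.1% of all probes, and 1 passed, against 0.627%. In HFHS vehicle against ST pollutants 2 passed, both lower, against 2.00% of all probes called lower, and 7 of 29 differences were positive, against 49.1% of all probes. In ST pollutants against ST vehicle none passed, with 27 of 29 differences negative, against 51.7% of all probes. Both comparisons with ST vehicle use the same 3 arrays of that group. The median differences were -0.37 and -0.31 for HFHS vehicle and ST pollutants minus ST vehicle, and -0.14 for HFHS vehicle minus ST pollutants. The male-biased mean per array was 2.40, 2.24, 2.19, 2.57 and 2.44 in HFHS vehicle, 3.02, 2.74, 2.37, 2.51 and 2.55 in ST pollutants, and 2.45, 2.72 and 3.80 in ST vehicle. ST vehicle replicate 3, the array that was also highest for Stat5a, Stat5b, Socs2 and Cish, stood above the other 12, while ST vehicle replicates 1 and 2 lay within the range of ST pollutants.

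Cib3, which encodes a calcium-binding protein, passed against both standard diet groups. It read -3.43, -3.11, -3.07, -2.50 and -2.68 in HFHS vehicle, -1.50, -0.95, -1.41, -1.61 and -1.65 in ST pollutants, and -1.80, -1.70 and -0.27 in ST vehicle. Every HFHS vehicle array was below every other array. Cib3 was lower in HFHS vehicle, with differences of -1.53 ± 0.28 against ST pollutants (adjusted p = 0.0125) and -1.70 ± 0.32 against ST vehicle (adjusted p = 0.0394). The call against ST pollutants held in each of the 13 omissions of a single array, and was lost with normexp background correction (-0.81, adjusted p = 0.275) and without the acinar-high arrays (-1.84, adjusted p = 0.0612). The call against ST vehicle was lost in 11 of them, all but those of HFHS vehicle replicate 4 and ST pollutants replicate 2 (adjusted p = 0.0525 to 0.0950), and with slide as a block (adjusted p = 0.0938). Over all alternatives Cib3 was called in 22 of 25 against ST pollutants and in 7 of 25 against ST vehicle.

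Cyp2u1, a cytochrome P450 gene of the male-biased list, read 6.36, 6.42, 6.51, 6.98 and 6.79 in HFHS vehicle, 7.53, 7.45, 7.09, 7.33 and 7.69 in ST pollutants, and 6.98, 7.24 and 6.97 in ST vehicle. The HFHS vehicle arrays lay below all ST pollutants arrays and reached those of ST vehicle. The difference between HFHS vehicle and ST pollutants was -0.81 ± 0.14 (adjusted p = 0.0101), and it was called in 24 of 25 alternatives, all but that without the arrays of slide 1 (-0.71, adjusted p = 0.0956).

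Of the genes higher in females, 21 of 24 were measured, by 30 probes, and none passed in HFHS vehicle against ST vehicle, against 0.627% of all probes. Positive differences numbered 21 of 30 in HFHS vehicle and 18 of 30 in ST pollutants against ST vehicle, and 14 of 30 in HFHS vehicle against ST pollutants. The shares over all probes were 45.9%, 48.3% and 49.1% in the same order. The median differences were 0.19 and 0.18 for HFHS vehicle and ST pollutants minus ST vehicle, and -0.03 for HFHS vehicle minus ST pollutants. The female-biased mean per array, with 1 probe per gene, was 2.83, 2.77, 2.56, 2.76 and 3.04 in HFHS vehicle. It was 2.50, 2.57, 2.50, 2.61 and 2.67 in ST pollutants, and 2.71, 2.86 and 2.54 in ST vehicle. On this measure the groups overlap. The median of ST pollutants (2.57) was below that of ST vehicle (2.71), opposite in sign to the median over probes. Fmo2, a flavin-containing monooxygenase, passed in ST pollutants against ST vehicle and Hao2, a peroxisomal hydroxyacid oxidase, in HFHS vehicle against ST pollutants. Each was 1 of 30 probes, while 0.983% and 3.42% of all probes were called in these comparisons. Fmo2 read 1.29, 1.00, 1.26, 0.94 and 1.24 in HFHS vehicle, 1.48, 1.58, 1.15, 1.36 and 1.35 in ST pollutants, and 0.66, 0.72 and 0.12 in ST vehicle. All HFHS vehicle and ST pollutants arrays were above all ST vehicle arrays. The difference of Fmo2 from ST vehicle was 0.89 ± 0.15 in ST pollutants (adjusted p = 0.0198) and 0.65 ± 0.15 in HFHS vehicle (adjusted p = 0.0749). The Fmo2 call was lost without ST vehicle replicate 1 or 3 (adjusted p = 0.0539 and 0.0801) and with slide as a block (adjusted p = 0.0534).

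Hao2 read 1.85, 1.91, 2.10, 1.68 and 1.89 in HFHS vehicle, 0.29, 1.56, 0.14, -0.78 and -0.31 in ST pollutants, and 0.78, 1.41 and 0.02 in ST vehicle. The HFHS vehicle arrays were close together and above all others, and the standard diet arrays were scattered. Hao2 was higher in HFHS vehicle than in ST pollutants by 1.71 ± 0.37 (adjusted p = 0.0293). The call was lost in 8 of 13 omissions, those of HFHS vehicle replicates 1, 2, 3 and 5 and ST pollutants replicates 1, 3, 4 and 5 (adjusted p = 0.0514 to 0.0732), and without the acinar-high arrays (1.70, adjusted p = 0.190), and it was kept with slide as a block (adjusted p = 0.0195). Without the arrays of slide 1 none of the calls of Foxa3, Cib3, Cyp2u1, Fmo2 and Hao2 held (adjusted p = 0.0809 to 0.188). Over all alternatives the call of Hao2 was made in 13 of 25, that of Foxa3 in 10 of 25 and that of Fmo2 in 16 of 24.

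The 3 members that varied most over the 13 arrays were Cish, Socs2 and Igfbp2, and other genes had similar profiles. Likeness was measured as the root mean square difference between profiles centred on their own mean, in log2 units over 13 arrays. Nearest to Socs2 was Rgs3, a regulator of G protein signalling, at 0.24, followed by G6pc, the catalytic subunit of glucose-6-phosphatase, at 0.43 and Btg2 at 0.44. Near to Igfbp2 were Rapgef4 and Btg3, both at 0.32. Nearest to Cish were Arid5b at 0.39, Ugt2a1 at 0.43 and Onecut1, a hepatocyte transcription factor, at 0.45. The SD over the arrays was 0.76 for Cish, 0.75 for Socs2 and 0.62 for Igfbp2, which is the scale on which these distances are read.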

How the data were processed

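The deposited scanner files hold spot intensity on a linear scale, extracted with Agilent Feature Extraction 11.5.1.1 per the file headers; the processed signal was used. The authors' deposited table gives log2 values of 26082 probes, 13 of 13 columns of which matched their own array best. It served as an alternative, and limma is among the tools in the submitters' processing notes. Control spots were left out, outlier-flagged spots set to missing (no member value was), spots of a probe averaged, and each array's 75th percentile subtracted from the log2 signal. A probe was kept where some group had all its arrays well above background.

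limma 3.58.1 (R 4.3.3) fitted the 3 groups to all 13 arrays, probe by probe, with Benjamini-Hochberg adjustment over 25030 probes and calls at an adjusted p under 0.05; errors are SE. The scripts were tested on simulated data. Alternative settings numbered 24, and 1 more was added after seeing the data. Members and lists were chosen with earlier results of these data known. All members are named, with every list gene called and, for the 3 members of largest SD, the 3 nearest profiles, of which 1 is not reported here. Probe positions on mm9 come from the scanner files; exon and UTR positions were not assigned. The number of arrays, above all 3 in ST vehicle, limits the precision.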

Additional observations from a re-analysis of the deposited data

Results flagged for a closer look

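The fourth Socs2 probe, at mm9 chr10:94848005-94848064, 27061 bases or more from the others, was not well above background on the HFHS vehicle and ST vehicle arrays and was so on a single array, ST pollutants replicate 5, where it read -4.12. That signal lies in data outside the comparisons. Over the 5 ST pollutants arrays its values ran up to that level from -6.16. Among the 20 probes tested, no array stood apart from its group of 5 in any of the 40 groups examined, by Dixon's ratio of gap to range. The ST vehicle group, with 3 arrays, was too small for this check and was not examined. ST pollutants replicate 5 came close on the Igfbp2 probes, with ratios of 0.68 and 0.70 against a critical value of 0.71.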

How the results depend on the processing

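No member probe was called against ST vehicle in HFHS vehicle or ST pollutants under any alternative run. The 3 calls in HFHS vehicle against ST pollutants lay near the threshold. The less bright Igfbp2 probe was called in 9 of 24 alternatives, the brighter in 5 of 25 and the downstream Prlr probe in 13 of 25, always with the same sign. The count of member probes called there was 0 with no filter on dim probes, with only the 2 groups fitted, without the arrays of slide 1 and, added after seeing the data, without the 3 HFHS vehicle arrays high in acinar transcripts. It was 1 with slide as a block and 0 to 2 with a single array left out. The numbers of the labels do not pair the samples throughout (correlations of same-numbered arrays' deviations were -0.16 to 0.55). The values -0.16 and -0.14 were those of ST vehicle replicate 3, on slide 5, with the replicates 3 of slide 3. For arrays of different groups on the same slide the correlations were -0.02 to 0.55, and on different slides -0.39 to 0.26. The main fit leaves slide out. With the replicate block 0 member probes were called (Igfbp2 adjusted p = 0.0570 and 0.0549, Prlr 0.0502). Normexp background correction moved the median of all probes to 0.12 for HFHS vehicle minus either other group. Before that shift is taken off, the Prlr difference was 0.44 (adjusted p = 0.238) and those of Igfbp2 were -1.17 and -1.13, still called. With normexp 46.2% of only 13 calls in ST pollutants against ST vehicle were higher, against 56.5% of 246 calls without it.

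The share of all probes called moved as well. For HFHS vehicle against ST vehicle it was 0.184% with normexp, 0.175% with no filter, 0.108% with 2 groups, 0.248% with the replicate block, 0.0275% without slide 1, 0.0784% without the acinar-high arrays and 0.15% to 0.63% with single omissions. For ST pollutants against ST vehicle it was 0.0519%, 0.147%, 0.188%, 0.248% and 0.133% under the first 5 of these, 0.336% with slide as a block and 0.201% to 0.845% with single omissions. For HFHS vehicle against ST pollutants it was 1.07% with normexp, 1% with no filter, 0.051% without slide 1, 1.15% without the acinar-high arrays and 1.52% to 3.08% with single omissions. The causes were not tested.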

Other observations

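The following differences within an array were chosen after the values were seen, so they are given as values with no test. In each, only the change between arrays is read, since a probe's brightness sets its level. Cish minus Socs2 was 1.54, 2.42, 2.10, 1.48 and 1.21 in HFHS vehicle, 0.34, 0.95, 0.50, 0.78 and 0.67 in ST pollutants, and -0.16, -0.12 and 0.54 in ST vehicle. All 5 HFHS vehicle arrays were above all 8 others, and the ST pollutants and ST vehicle arrays overlapped. Its mean was 1.75 ± 0.50 in HFHS vehicle, 0.65 ± 0.24 in ST pollutants and 0.09 ± 0.39 in ST vehicle (SD, n = 5, 5 and 3). Within slides the HFHS vehicle array exceeded the ST pollutants array by 0.54 to 1.60 on all 5 slides. With either of the other Socs2 probes the lowest HFHS vehicle array (1.50 and 1.61) was above the highest of ST pollutants (1.12 and 1.15) and of ST vehicle (0.68 and 0.81). Those probes gave the same pattern as the first and are set against the same Cish probe, so this is not a separate check. Within the ST vehicle group the arrays had the same order for Cish and Socs2.

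The downstream minus the upstream Prlr probe was 0.45, 0.25, 0.52, 0.26 and 0.74 in HFHS vehicle, 0.18, 0.13, -0.06, -0.05 and 0.17 in ST pollutants, and -0.04, 0.12 and 0.38 in ST vehicle. The HFHS vehicle arrays were all above the ST pollutants arrays and overlapped those of ST vehicle.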
